A study of Mus musculus with 4 samples.

Results

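Tuft cells are rare chemosensory cells of the gut epithelium. They sense luminal signals through a taste-like cascade, in which a G protein opens the cation channel TRPM5, and they depend on the transcription factor POU2F3. They are the main epithelial source of interleukin-25, which acts on type 2 innate lymphoid cells and so leads to type 2 immunity, in which eosinophils take part. Described here are 8 genes used to mark tuft cells or their interleukin-25 signal, chosen by symbol among the 53819 symbols of the count table: Dclk1, Pou2f3, Trpm5, Avil, Sh2d6, Gnat3, Il25 and Il17rb. All 8 were present in the table.

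The samples were labelled as primary eosinophils of the colon from wild-type C57Bl/6 mice. There were 2 libraries from mice given 3% DSS (dextran sulfate sodium, which damages the lining of the colon) and 2 from control mice on water. All 4 titles also carry the tag D6, which the labels do not explain. The sources used here do not say how the cells were isolated.

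The label of the samples and the RNA in them differed. Reads of Epcam, a gene of epithelial cells, came to 328 and 678 CPM (CPM are read counts scaled to one library size) in DSS replicates 1 and 2 and to 804 and 524 CPM in water replicates 1 and 2. The summed eosinophil list (10 genes) stood at 94.4 and 352 CPM in DSS and at 7.85 and 72.9 CPM in water, and Il5ra, the interleukin-5 receptor gene, had 0 reads in water replicate 1. Water replicate 1 also stood apart by pancreatic acinar genes, whose 14-gene list summed to 13.2 and 22.3 CPM in DSS and to 19926 and 38.0 CPM in water. DSS replicate 1 stood apart by immunoglobulin genes, which took 29.0% and 7.61% of counts in DSS and 7.21% and 6.18% in water (Wilson 95% intervals at most 0.0310 percentage points wide). Both water libraries held prostate genes, at 4.09 and 6.80 CPM in DSS and 672 and 634 CPM in water over 11 genes. Every tuft cell gene was therefore read in bulk RNA that held epithelium, and fewer cells of a type and less RNA per cell cannot be told apart in it.

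The members lie on 7 chromosomes of GRCm38, and all are annotated as protein-coding. Pou2f3 lies on chromosome 9 (43123939 to 43210369, minus strand), Gnat3 on chromosome 5 (17962549 to 18019834, plus), Trpm5 on chromosome 7 (143069153 to 143094642, minus) and Avil on chromosome 10 (127000709 to 127020994, plus). Sh2d6 lies on chromosome 6 (72513641 to 72521707, minus) and Dclk1 on chromosome 3 (55242364 to 55539068, plus). Il25 (54932695 to 54935837, plus) and Il17rb (29996135 to 30008896, minus) share chromosome 14. The exons of 3 members share bases with a gene on the opposite strand that had reads in every library: 3.44% of Trpm5's exonic bases with Tssc4, 4.86% of Avil's with Tsfm and 3.80% of Il17rb's with Actr8. Whether reads there were assigned by strand is not given.

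The promoters of Sh2d6, Trpm5 and Avil are shown because these genes had the same order of groups in what follows. They are RefSeq sequences (GRCm38.p6), 250 bases before to 50 after the gene's annotated start, written 5′ to 3′ on the gene's strand. The RefSeq table held promoters for 6 of the 8 members, and none for Pou2f3 or Il25. The RefSeq start of Sh2d6 lies inside the GENCODE gene, downstream of that annotation's own start. Capitals mark ATGCAAA, the first 7 letters of the octamer ATGCAAAT that POU class 2 factors are known to bind, on either strand.
Sh2d6 (chr6:72519987-72520286, minus strand): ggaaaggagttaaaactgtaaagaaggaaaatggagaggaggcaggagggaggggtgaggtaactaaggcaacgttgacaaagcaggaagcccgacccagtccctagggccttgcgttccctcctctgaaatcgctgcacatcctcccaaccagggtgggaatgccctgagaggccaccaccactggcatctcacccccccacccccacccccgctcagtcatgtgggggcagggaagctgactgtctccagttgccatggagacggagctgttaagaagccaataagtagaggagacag
Trpm5 (chr7:143094593-143094892, minus strand): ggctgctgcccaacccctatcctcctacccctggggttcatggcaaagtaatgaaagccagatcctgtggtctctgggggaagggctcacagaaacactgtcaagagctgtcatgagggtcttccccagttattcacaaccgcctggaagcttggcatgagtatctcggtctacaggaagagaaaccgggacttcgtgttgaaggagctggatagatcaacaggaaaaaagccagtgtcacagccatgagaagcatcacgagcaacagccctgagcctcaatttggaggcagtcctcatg
Avil (chr10:127000459-127000758, plus strand): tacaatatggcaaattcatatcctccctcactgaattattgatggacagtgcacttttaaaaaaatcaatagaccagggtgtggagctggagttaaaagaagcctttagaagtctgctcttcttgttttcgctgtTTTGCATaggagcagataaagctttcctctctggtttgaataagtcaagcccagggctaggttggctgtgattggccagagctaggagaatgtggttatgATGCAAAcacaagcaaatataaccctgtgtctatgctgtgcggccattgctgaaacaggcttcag

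The full octamer was found in 0 of the 7 member promoters (Dclk1 has 2 in the table) and in 1.74% of all 32851 promoters of the same length. Its first 7 letters, a form looked for after the member promoters had been read, were found in 4.63% of all promoters and, among members, in Avil alone. Avil held that match at 15 bases before the start on the gene's strand and its reverse complement, TTTGCAT, at 115 bases before the start. These matches describe letters and not binding.

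Taken gene by gene, edgeR's quasi-likelihood test called none of the 6 members that passed the filter on low counts, where it called 0.016% of all 18788 genes tested. Unadjusted p values under 0.05 were found for 2 of the 6 members, Avil and Sh2d6, against 8.45% of all genes. DESeq2 also called 0 of these 6, against 2.55% of all genes it adjusted (0.895% called lower in DSS). Gnat3 and Il25 did not pass the filter. Of the 6, 5 had a log2 fold change below 0 (50.8% of all genes did), with a median of -0.84 beside -0.01 over all genes tested. For any one gene, the smallest p that an exact permutation test (two-sided) allows here is 0.333.

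**Figure D1:**
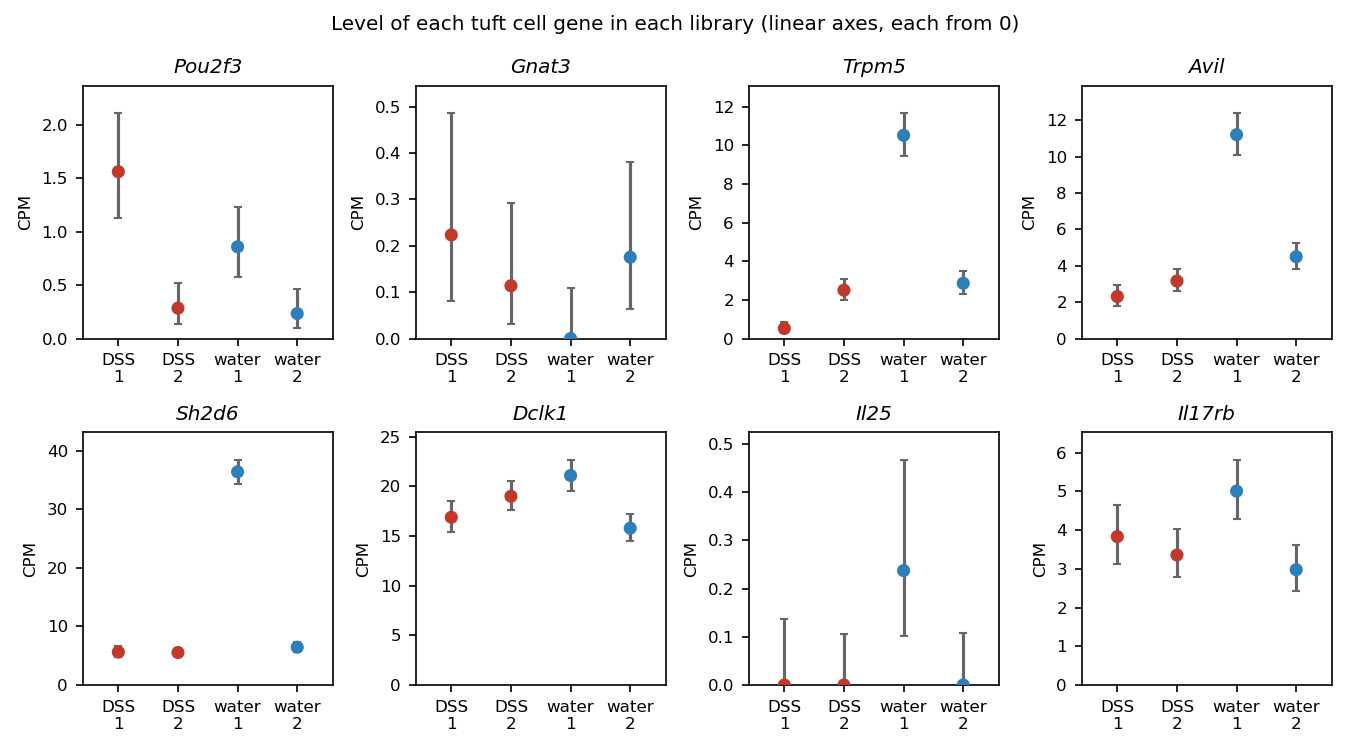
CPM of each of the 8 genes (vertical axes, linear, each from 0) in DSS replicates 1 and 2 (red) and water replicates 1 and 2 (blue); bars are exact 95% Poisson intervals of the reads. Sh2d6, Trpm5 and Avil stand highest in water replicate 1, at 36.4, 10.5 and 11.2 CPM, while Dclk1 lies between 15.8 and 21.1 CPM in all 4 libraries.

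Pou2f3, the transcription factor gene that the tuft lineage requires, was low and varied within each group. It had 42 and 10 reads in the DSS libraries, or 1.56 and 0.285 CPM, against 29 and 8 reads, or 0.860 and 0.234 CPM, in the water libraries. Replicate 1 of each group was the higher one, and the groups overlapped. The log2 fold change was 0.75 (SE 1.23, edgeR adjusted p = 0.919), and it became -0.93 without DSS replicate 1, so its direction rested on that library. Without DSS replicate 2 it was 1.51, without water replicate 1 it was 1.92 and without water replicate 2 it was 0.10.

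Of the taste-type signalling members, Gnat3, which encodes the G protein subunit gustducin, was at the edge of detection. It had 6 and 4 reads in DSS, against 0 and 6 reads in water, so no comparison was possible at this depth. A count of 0 in water replicate 1 allows up to 0.109 CPM (exact 95% Poisson limit).

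Trpm5, the cation channel gene downstream of that G protein, was read in every library. It had 14 and 88 reads in DSS, or 0.521 and 2.50 CPM, against 355 and 98 reads, or 10.5 and 2.86 CPM, in water. Both DSS libraries lay below both water libraries, but DSS replicate 2 and water replicate 2 were close, with Poisson intervals of 2.01 to 3.09 and 2.32 to 3.49 CPM. The log2 fold change was -2.13 (SE 0.94, edgeR adjusted p = 0.636). Leaving out water replicate 1 or 2 gave -0.94 or -2.77, leaving out DSS replicate 1 or 2 gave -1.41 or -3.67, and none of these 4 edgeR fits called it. Trpm5 was called by edgeR when no filter on low counts was used (adjusted p = 0.0184), a setting that called 1051 of 27735 genes. Over the fits of all 4 libraries its adjusted p ran from 0.0184 to 0.958 (edgeR with the replicate block).

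Avil and Sh2d6 followed the same order. Avil encodes advillin, an actin-binding protein of the tuft cell's microvilli. It had 62 and 111 reads in DSS, or 2.31 and 3.16 CPM, against 378 and 154 reads, or 11.2 and 4.50 CPM, in water. The groups did not overlap, and the log2 fold change was -1.52 (SE 0.58, edgeR adjusted p = 0.572). Avil's fold change was -0.75 without water replicate 1 and between -2.02 and -1.31 without any other library.

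Sh2d6, which encodes an SH2 domain protein, had one library far above the other 3. It had 151 and 195 reads in DSS, or 5.62 and 5.55 CPM, against 1228 and 221 reads, or 36.4 and 6.45 CPM, in water. The other 3 libraries thus lay between 5.55 and 6.45 CPM, and water replicate 1 stood 5.64-fold above water replicate 2. The log2 fold change was -1.94 (SE 0.76, edgeR adjusted p = 0.574) and shrank to -0.25 without water replicate 1. Without water replicate 2 it was -2.70. EdgeR called Sh2d6 with no filter on low counts (adjusted p = 0.000259), a setting that called 1051 of 27735 genes. Over the fits of all 4 libraries its adjusted p ran from 0.000259 to 0.9045 (edgeR with the replicate block).

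Groups that did not overlap were thus found for 3 members, all with DSS below water, where 18.7% of all genes tested had that order and 20.8% the opposite one. The same 3 genes, Sh2d6, Trpm5 and Avil, stood at least 2-fold higher in water replicate 1 than in each of the other libraries, as did 3.87% of all genes tested. Water replicate 1 was 3.68-fold above water replicate 2 for Trpm5 and 2.49-fold for Avil. In that library Clps, Cela1, Cpb1 and Rnase1, the 4 tested genes of the acinar list, also stood at least 2-fold above every other library. So did genes of gut epithelial lists: 2 of 7 crypt stem cell genes (Lgr5 and Rnf43), 2 of 9 goblet cell genes (Clca1 and Zg16), 1 of 8 colonocyte genes (Car4) and 1 of 10 enteroendocrine genes (Pax6), but 0 of 13 general epithelial genes. Among the further tuft and taste-type genes described below, 1 of 16 tested tuft markers (1810046K07Rik) and 0 of 8 tested taste-type signalling genes did so. The 9 pancreatic islet genes, tallied because Trpm5 is known from beta cells, were few in reads, with a sum of 1.19 and 1.20 CPM in DSS and 3.02 and 0.759 CPM in water. Of these, 7 and 5 were at 0 reads in the DSS libraries and 4 and 7 in the water libraries. The part of pancreatic RNA in the values of Sh2d6, Trpm5 and Avil was not tested.

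Dclk1, which encodes a doublecortin-like kinase and is the most used marker of mouse tuft cells, did not share this order. It had 454 and 668 reads in DSS, or 16.9 and 19.0 CPM, against 712 and 541 reads, or 21.1 and 15.8 CPM, in water. Its highest library was 1.34-fold above its lowest, beside 6.56-fold for Sh2d6 and 20.2-fold for Trpm5. The log2 fold change was -0.04 (SE 0.30, edgeR adjusted p = 0.990), and the groups overlapped. Dclk1 is also known from neurons, and the 12-gene list of enteric neurons and glia summed to 71.6 and 56.7 CPM in DSS and to 99.2 and 111 CPM in water. The part of such cells in the level of Dclk1 was not tested.

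The signal and its receptor were at very different depths. Il25, the cytokine gene, had 0 reads in both DSS libraries, against 8 and 0 reads in water replicates 1 and 2. All its reads thus came from the library in which Sh2d6 was highest, at 0.237 CPM (exact 95% Poisson interval 0.102 to 0.467), and by the same kind of interval 0 reads allow up to 0.137 and 0.105 CPM in the DSS libraries, so the intervals of water replicate 1 and both DSS libraries overlapped. Il17rb, which encodes the receptor subunit that binds interleukin-25 and is known from type 2 innate lymphoid cells as well as from tuft cells, had 103 and 118 reads in DSS, or 3.83 and 3.36 CPM. In water it had 169 and 102 reads, or 5.01 and 2.98 CPM. The groups overlapped, and the log2 fold change was -0.15 (SE 0.51, edgeR adjusted p = 0.968). It was 0.23 without water replicate 1.

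Per kilobase of exon, Sh2d6 was the highest member in both groups, at 3.30 ± 0.03 CPM per kilobase in DSS and 12.7 ± 12.5 in water (SD, n = 2 each). In DSS it was followed by Dclk1 at 1.17 ± 0.10, Il17rb at 0.970 ± 0.091 and Avil at 0.804 ± 0.177 CPM per kilobase, and the ranges of Il17rb and Avil overlapped. In water it was followed by Avil at 2.31 ± 1.40, Dclk1 at 1.21 ± 0.25, Il17rb at 1.08 ± 0.39 and Trpm5 at 1.05 ± 0.85 CPM per kilobase, and each of these neighbours overlapped the next. Pou2f3 and Trpm5 overlapped in DSS at 0.299 ± 0.293 and 0.236 ± 0.219 CPM per kilobase, and Gnat3 and Il25 had the lowest means in both groups, though Gnat3 overlapped Trpm5 in DSS and Il25 overlapped Pou2f3 in water. The exonic length joins all annotated isoforms, which for Dclk1 is 15296 bases, so its level per kilobase is a low estimate wherever a shorter isoform was read.

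The 8 genes together summed to 31.0 and 34.0 CPM in DSS and to 85.3 and 33.0 CPM in water. Water replicate 1 alone stood apart, and without it the group means were 32.5 and 33.0 CPM. Dclk1 made up 54.6% and 55.9% of the sum in DSS and 24.7% and 47.9% in water, while Sh2d6 made up 18.1% and 16.3% in DSS and 42.7% and 19.6% in water. Without Dclk1 and Il17rb, which other cells of the gut wall also express, the remaining 6 genes summed to 10.2 and 11.6 CPM in DSS and to 59.2 and 14.2 CPM in water, with no overlap between groups. That order was largely set by the choice of genes, since Sh2d6, Trpm5 and Avil each had it and make up most of this sum. Without water replicate 1 the group means were 10.9 CPM in DSS and 14.2 CPM in water.

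The libraries also differed in their epithelial content, against which these sums can be set. The 13 general epithelial genes summed to 3688 and 9257 CPM in DSS and to 10216 and 6145 CPM in water. As a share of that sum, the 8 genes stood at 0.839% and 0.367% in DSS and at 0.835% and 0.537% in water, so DSS replicate 1 and water replicate 1 lay side by side. The difference of means, DSS minus water, was -0.08 percentage points and turned to 0.15 without DSS replicate 2 and to 0.07 without water replicate 1. For the 6 genes without Dclk1 and Il17rb the share was 0.277% and 0.125% in DSS and 0.580% and 0.231% in water, and the groups overlapped.

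Among single genes set against the epithelial sum, Trpm5 and Avil kept groups that did not overlap, and Sh2d6 did not. Trpm5 stood at 0.0141% and 0.0271% of the epithelial sum in DSS and at 0.103% and 0.0466% in water. Avil stood at 0.0626% and 0.0341% in DSS and at 0.110% and 0.0732% in water. Sh2d6 stood at 0.152% and 0.0599% in DSS and at 0.356% and 0.105% in water, so that DSS replicate 1 lay above water replicate 2. Pou2f3 was highest in DSS replicate 1 by this measure too, at 0.0424% beside 0.00307% in DSS replicate 2 and 0.00841% and 0.00380% in water. These are descriptions of 2 libraries a group, with no test.

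**Figure D2:**
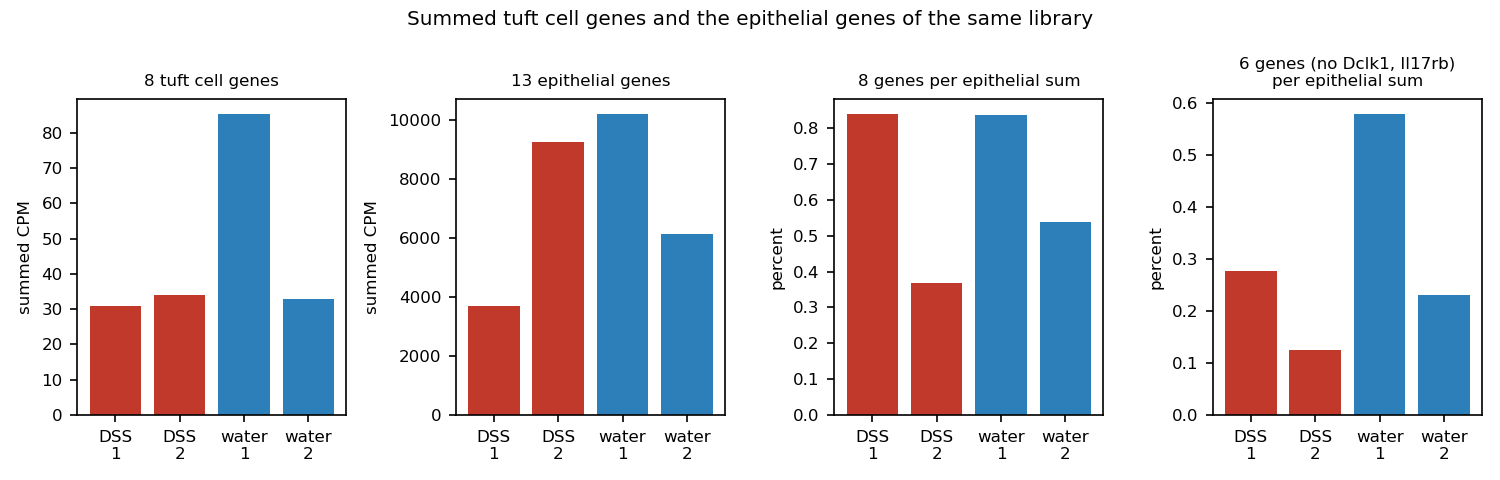
From left, the summed CPM of the 8 tuft cell genes and of 13 general epithelial genes, and the tuft sum as a percent of the epithelial sum with all 8 genes and with 6 genes, in each DSS (red) and water (blue) library. The tuft sum of water replicate 1 is 85.3 CPM beside 31.0 to 34.0 in the others, while its share of the epithelial sum, 0.835%, lies beside 0.839% in DSS replicate 1.

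Other genes of the tuft programme gave no common direction. Of 18 further genes used as tuft markers, 16 were tested; edgeR called none and DESeq2 called none, and 9 log2 fold changes were positive and 7 negative (median 0.11). At an unadjusted p under 0.05 there were 2 above 0 and 2 below, where 8.45% of all genes tested had such a p. The 4 most abundant by CPM are known from leukocytes or from many epithelial cells as well. Kctd12, a potassium channel tetramerisation domain gene, had 317 and 321 CPM in DSS and 114 and 216 in water, and Cd24a, a surface glycoprotein gene, had 211 and 268 CPM in DSS and 185 and 252 in water. Pik3r5, a regulatory subunit gene of phosphoinositide 3-kinase gamma, had 125 and 61.3 CPM in DSS and 29.6 and 39.5 in water (log2 fold change 1.43, SE 0.41, adjusted p = 0.490). Fyb, an adaptor gene of T cells and myeloid cells, had 75.8 and 67.2 CPM in DSS and 28.6 and 58.6 in water.

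The neutrophil list of 10 genes summed to 1151 and 1646 CPM in DSS and 41.0 and 154 CPM in water. The part of neutrophils in the values of Kctd12, Cd24a, Pik3r5 and Fyb was not tested. Several further genes used as tuft markers, named here after their values were seen, did not share one order. Rgs13, a regulator of G protein signalling, had 12 and 32 reads in DSS and 93 and 147 in water (log2 fold change -2.36, SE 0.69, edgeR adjusted p = 0.492), with no overlap. Hmx2, a homeobox gene, had 0 reads in both DSS libraries and 50 and 2 reads in water, and was thus highest in water replicate 1, as were Sh2d6, Trpm5 and Avil. Hmx3, another homeobox gene, had 6 and 8 reads in DSS and 20 and 0 in water. Gfi1b, a transcription factor gene also known from blood cells, had 36 and 211 reads in DSS and 0 and 52 in water (log2 fold change 2.27, SE 1.62, edgeR adjusted p = 0.779), so it was lowest in water replicate 1. Matk and Bmx, which encode tyrosine kinases, had log2 fold changes of 0.09 (SE 0.34) and -0.28 (SE 0.57).

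The rest of the taste-type cascade was partly unread. Of 15 genes, 8 were tested, none was called by edgeR or DESeq2, and 5 log2 fold changes were positive and 3 negative (median 0.35); 1 had an unadjusted p under 0.05 (8.45% of all genes did) and lay above 0. Plcb2, the phospholipase gene between the G protein and TRPM5, had 51.1 and 69.9 CPM in DSS and 18.4 and 39.1 in water (log2 fold change 1.07, SE 0.41, adjusted p = 0.572). Leukocytes also express Plcb2, and the neutrophil sum given above was lowest in water replicate 1, as Plcb2 was; its part in the value was not tested. Itpr3, the calcium release channel gene of that cascade, had 168 and 181 CPM in DSS and 180 and 141 in water. Plcg2 and Inpp5d, a phospholipase and an inositol phosphatase gene that leukocytes likewise express, had log2 fold changes of 0.94 (SE 0.49) and 0.82 (SE 0.39). Gng13, the gamma subunit gene paired with gustducin, had 16 and 0 reads in DSS and 0 in both water libraries. The bitter receptor genes Tas2r143 and Tas2r138 had 0 reads in every library, and Tas2r108 had 6 reads, all in water replicate 1.

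**Figure D3:**
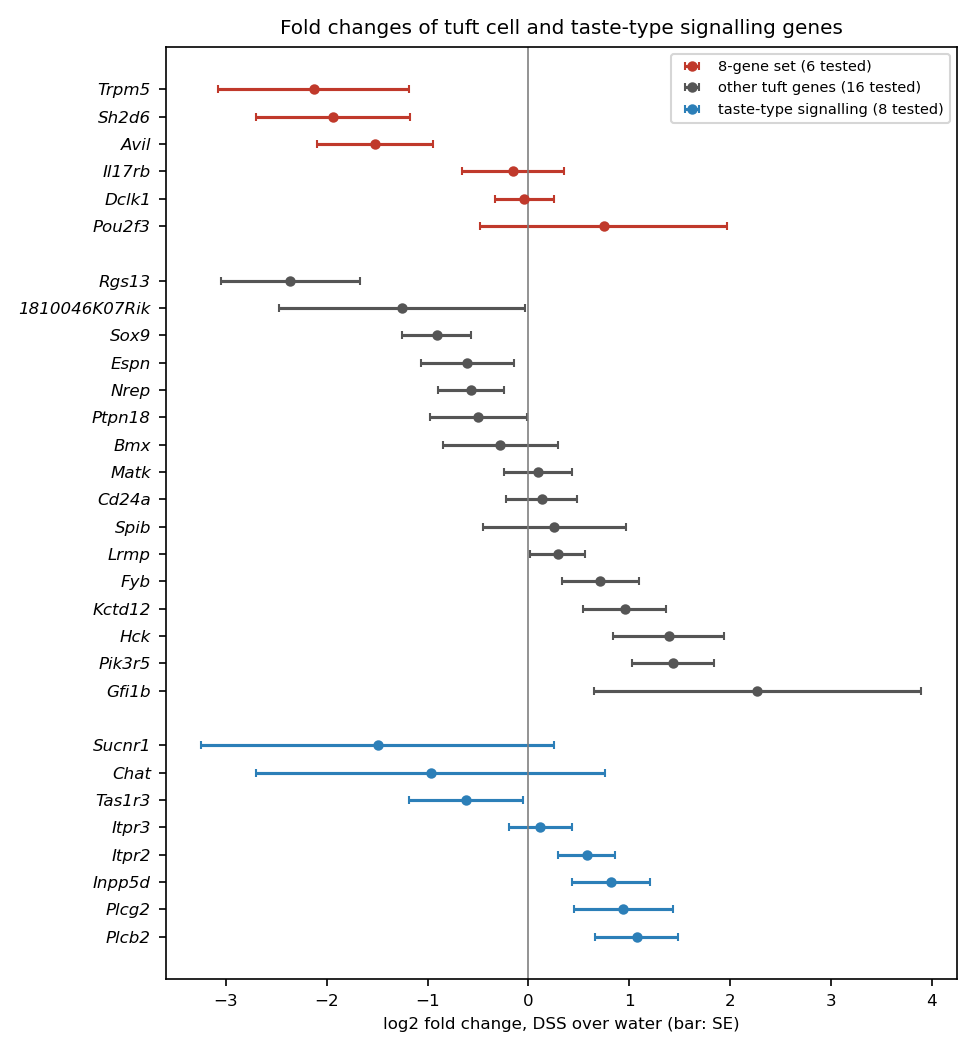
Log2 fold change of DSS over water (horizontal axis; bars are SE) for the tested genes of the 8-gene set (red, 6 tested), the other tuft markers (grey, 16 tested) and taste-type signalling (blue, 8 tested). Trpm5, Sh2d6 and Avil lie at -2.13, -1.94 and -1.52 and Dclk1 at -0.04; none of the genes shown was called.

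Tuft cells also make eicosanoids, and their enzyme genes are shared with leukocytes. Of 9 such genes, all were tested and edgeR called none. An unadjusted edgeR p under 0.05 was found for 2 (1 above and 1 below 0), beside 8.45% of all genes. DESeq2 called 1, Alox5ap, beside 2.55% of all genes it adjusted. Alox5ap, the activating protein gene of leukotriene synthesis, had 24.0 and 45.7 CPM in DSS and 3.50 and 11.9 in water (log2 fold change 2.18, SE 0.64, edgeR adjusted p = 0.492; DESeq2 adjusted p = 0.0140). Its lowest library was water replicate 1, where Sh2d6 was highest, and the eosinophil and neutrophil lists were lowest there too; their part in it was not tested. Of the 9 log2 fold changes of the list, 6 were positive and 3 negative (median 0.40). Hpgds, named here after its values were seen, had 19.2 and 8.42 CPM in DSS and 28.8 and 34.3 in water. Its groups did not overlap, with DSS below water (log2 fold change -1.19, SE 0.43, edgeR adjusted p = 0.558).

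In the type 2 circuit that interleukin-25 is part of, 16 of 18 genes were tested. EdgeR called none, and DESeq2 called 1, Il33, beside 2.55% of all genes it adjusted. Of the 16 log2 fold changes, 13 were positive and 3 negative (median 0.64), where 50.8% of all genes tested lay below 0. An unadjusted edgeR p under 0.05 was found for 6 of the 16 genes, all above 0, beside 8.45% of all genes. Many of these genes are known from leukocytes, and leukocyte lists stood higher in the same DSS libraries: the mast cell list summed to 106 and 257 CPM in DSS and 38.7 and 98.3 CPM in water, beside the neutrophil and eosinophil sums given above. Their part in the type 2 genes was not tested. Il33, an alarmin gene that acts on the same lymphoid cells as interleukin-25, had 39.1 and 35.7 CPM in DSS and 15.4 CPM in each water library (log2 fold change 1.28, SE 0.25, edgeR adjusted p = 0.401; DESeq2 adjusted p = 0.0389). Il17ra, the partner subunit of Il17rb in the interleukin-25 receptor, had 106 and 68.3 CPM in DSS and 29.9 and 40.1 in water (log2 fold change 1.31, SE 0.33, edgeR adjusted p = 0.471), while Il17rb itself overlapped between groups. Il13, the cytokine gene through which lymphoid cells expand tuft cells, had 29 and 2 reads in DSS and 12 and 38 in water. Il9 had 0 reads in every library. Tslp, another cytokine gene of the list, had 1.19 and 1.11 CPM in DSS and 1.99 and 2.92 in water. Its groups did not overlap, with DSS below water (log2 fold change -1.09, SE 0.62, edgeR adjusted p = 0.726). Il17ra, Il13 and Tslp are named here after their values were seen.

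Siglecf, whose product marks eosinophils and is also known from mouse intestinal tuft cells, had 11.1 and 36.1 CPM in DSS and 0.830 and 12.2 CPM in water. It was lowest in water replicate 1, the library in which Sh2d6, Trpm5 and Avil were highest.

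**Figure D4:**
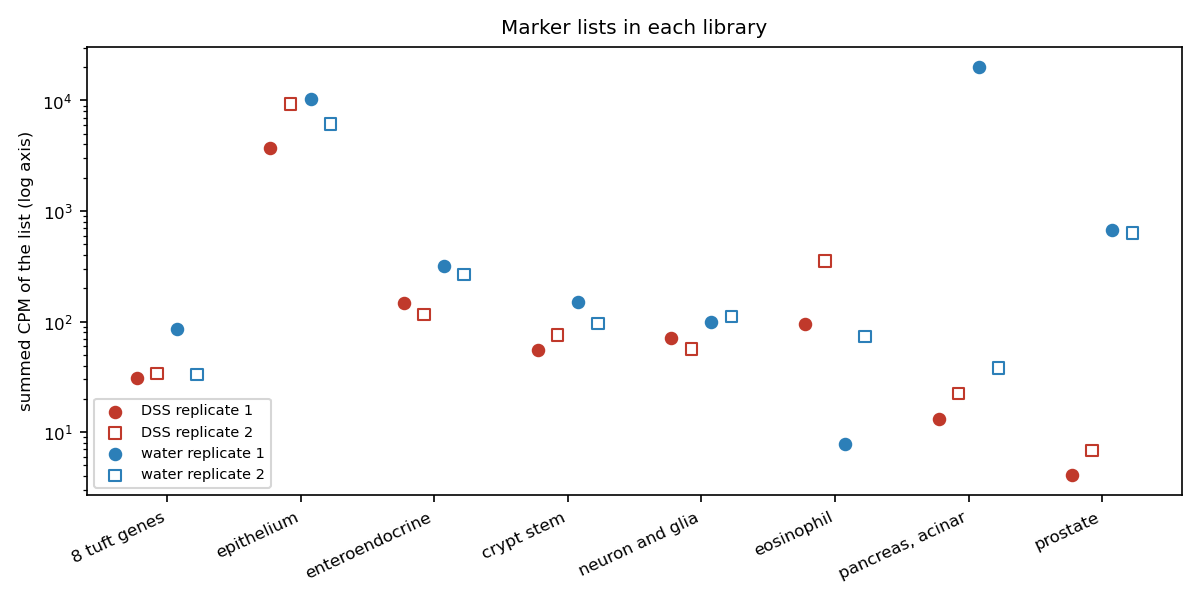
Summed CPM (log axis) of the 8 tuft cell genes and of marker lists of other cell types, for DSS replicates 1 and 2 (red circles and squares) and water replicates 1 and 2 (blue circles and squares). The tuft sum and the acinar sum, 19926 CPM, are highest in water replicate 1. So are the epithelial, enteroendocrine, crypt stem cell and prostate sums, at 10216, 315, 150 and 672 CPM. The eosinophil sum, 7.85 CPM, is lowest there. The prostate sum of water replicate 2 is near, at 634 CPM, and Spink1 of that list has 41.9 and 4.67 CPM in water replicates 1 and 2. The colonocyte and goblet cell sums, not shown, are highest in DSS replicate 2, at 4751 and 2905 CPM.

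Against other epithelial lineages, both DSS libraries lay below both water libraries for 9 of 10 enteroendocrine genes, 5 of 7 crypt stem cell genes, 3 of 8 colonocyte genes and 3 of 9 goblet cell genes, beside 3 of the 8 tuft cell genes and 18.7% of all genes tested. The enteroendocrine genes summed to 148 and 116 CPM in DSS and to 315 and 265 CPM in water. The crypt stem cell genes summed to 55.3 and 75.6 CPM in DSS and to 150 and 95.7 CPM in water, highest in water replicate 1 as the tuft cell sum was. Differences between these lists were not tested. No gene of these 4 lists was called by edgeR. At an unadjusted p under 0.05, beside 8.45% of all genes, there were 7 enteroendocrine, 4 stem cell, 3 colonocyte and 3 goblet cell genes below 0 and 1 stem cell gene above 0. DESeq2 called 1 enteroendocrine, 3 stem cell, 1 colonocyte and 1 goblet cell gene lower in DSS, beside 0.895% of all genes.

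By likeness of pattern over the 4 libraries, measured as the root mean square difference of centred log2(CPM + 0.5), the 5 genes nearest to the sum of the 8 members among 14151 candidates were Efna4, Ly6g6e, Adcy1, Ndufb2 and Zfp239, at 0.0510 to 0.0790. Efna4, for example, had 2.98 and 2.99 CPM in DSS and 8.24 and 2.95 in water. The nearest genes to single members were Pla2g4f for Sh2d6 (0.0923), Mroh3 for Trpm5 (0.125), Slc37a2 for Avil (0.0529), Psma5 for Dclk1 (0.0111), Prepl for Il17rb (0.0163) and Tmem221 for Pou2f3 (0.108). No gene was nearest to more than 1 of these patterns, and a likeness over 4 libraries describes these libraries alone.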

How the data were processed

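RNA was sequenced in bulk from 2 DSS and 2 water libraries. The authors deposited raw read counts for 53819 gene symbols, with no normalization. Mouse build mm10 (GRCm38) and the tools DESeq2, featureCounts, HISAT2, HTSeq and STAR appear, without roles, in the submitters' processing notes. Whether strand was used is not stated there.

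The 8 symbols were taken from the table by name. Coordinates and exonic lengths come from GENCODE vM21 (GRCm38). CPM are counts scaled by TMM-adjusted library totals. Genes passing filterByExpr of edgeR 4.0.16 (minimum count 10, minimum total 15; 18788 genes) entered its quasi-likelihood test (glmQLFit with robust, group as the only term), adjusted by Benjamini-Hochberg over all of them and called under 0.05. DESeq2 1.42.0 and limma-voom (limma 3.58.1) were alternatives. The labels do not tie libraries to separate mice; the p-values therefore cover only library-to-library spread, possibly technical.

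Depth was 30985905 to 34126329 counts per library. Of the low counts (1 to 10), 70.5% to 73.2% per library were even. Intervals (exact Poisson, 95%) take each count as an independent read and cover counting error only. They are too narrow if reads were counted in pairs, which was not tested. The members and lists were chosen with earlier results of these data known. Of the other lists, genes called by edgeR or DESeq2 were named, otherwise the 4 with the highest mean CPM; others were named after their values were seen.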

Additional observations from a re-analysis of the deposited data

How the results depend on the processing

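Over all genes edgeR called 3 of 18788, none of them a member. The count was 3 with DESeq2 size factors, upper-quartile scaling or a minimum of 1 CPM in 2 libraries and 4 without immunoglobulin, mitochondrial and rRNA genes. It became 1051 with no low-count filter, 498 with DESeq2, and 0 with limma-voom (1532 at an unadjusted p under 0.05). Without each library in turn it ran from 3 to 196 with edgeR and was 173, 581, 166 and 832 with DESeq2 (without DSS replicates 1 and 2 and water replicates 1 and 2). The replicate block gave 0 calls (1117 at an unadjusted p under 0.05), and no member's direction changed under it; the titles do not say that a number pairs libraries. The deviations of same-numbered libraries from their group means correlated weakly (-0.10 over 18788 genes), and a crossed replicate block, chosen after seeing the data like the DESeq2 fits without a library, gave 44.

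Avil, Sh2d6 and Trpm5 had DSS below water in all 17 alternatives each. Their groups did not overlap, so leaving out 1 library would keep this order in any case. Without water replicate 1 their edgeR log2 fold changes were -0.75, -0.25 and -0.94. Without 1 library, the log2 fold change reversed for Dclk1 (-0.22 to 0.15 with edgeR, -0.23 to 0.18 with DESeq2, where it was 0.043 without DSS replicate 1), Il17rb (-0.47 to 0.23 and -0.47 to 0.26) and Pou2f3 (-0.93 to 1.92 and -0.94 to 1.97). The difference in the summed level ran from -52.9 to -0.52 CPM without 1 library. The difference in the epithelial share (DSS minus water, percentage points) ran from -0.32 to 0.15 without 1 library and was -1.23 with Epcam alone as the denominator, where shares are larger by construction; the cause of the other changes was not tested. Depth limits Gnat3 and Il25, which had at most 8 reads in any library.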
